A study of Rattus norvegicus with 24 samples.

Results

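Rat urethra was compared 7 days (7d) after an intra-aortic injection of allogeneic mesoangioblasts (MABs-allo) or of saline, by sequencing of the 3ʹ ends of mRNA. These were 8 of the 24 samples of the study, with 4 samples per group, and the comparison took in every gene whose mean over these 8 samples was at least 2 normalised counts, which left 15269 of 32883 genes. All animals were wild-type female Sprague–Dawley rats of 12 weeks, and in both groups the pudendal nerve had been crushed and the vagina distended, a procedure called simulated vaginal delivery (SVD) that models birth injury. One hour later the treated rats received 500000 mesoangioblasts, and the control rats received saline alone. The cells came from hind limb muscle of rats other than the recipients, were sorted on alkaline phosphatase, and carried a lentiviral CMV-driven cassette for green fluorescent protein and firefly luciferase, on which they were sorted again. The saline samples were numbered 1, 2, 3 and 5 and the MABs-allo samples 7.2, 9, 11 and 13. The samples were whole urethra, in which fewer cells of a type and less RNA per cell cannot be told apart, and the labels do not say which animal each sample came from, so p-values measure only the spread between these samples.

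Mesoangioblasts are progenitors associated with the wall of small vessels, which can fuse into regenerating skeletal muscle fibres and release growth factors. The urethra that received them is a tube of urothelium surrounded by vessels, smooth muscle and an outer striated sphincter. After crush and distension such tissue passes through inflammation, clearing of debris and rebuilding of muscle, nerve and matrix, and chromatin regulators, splicing factors and metabolic enzymes set which genes the cells use while they rebuild. The question put by the design at 7d was whether the urethral transcriptome of treated rats still differed from that of injured rats given saline.

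Between 5244129 and 10166052 reads were assigned to genes per sample. MABs-allo replicate 11 was the deepest, and the other 7 samples held 5244129 to 6986159 reads. One read was worth 1.67 to 4.15 normalised counts, so that 3 reads, taken as the floor of detection, were worth 5 to 12.45. Markers of the tissue were present in every sample: smooth muscle actin Acta2 was at 69191 to 144662 normalised counts, the smooth muscle myosin Myh11 at 25938 to 52764, the skeletal actin Acta1 at 32691 to 131704, the basal keratin Krt5 at 2457 to 10434 and the endothelial cadherin Cdh5 at 533 to 813. The keratin Krt13, a marker of stratified epithelium, was at 0 to 77. Of the uroplakins, which mark urothelium, Upk1b was at 3081 to 10121 and Upk3a at 2675 to 17357. Upk2 ranged widely in both groups, at 284 to 11371 after saline and at 79 to 7050 after MABs-allo. MABs-allo replicate 13 stood apart in a few very abundant RNAs. There the α-globin Hba-a1 was at 1275722 normalised counts against 119443 to 662753 in the other 7 samples, the collagen Col1a1 at 337067 against 82862 to 170652, and the metallothionein Mt1m at 117940 against 5439 to 25694. Results are therefore also given without replicate 11 or replicate 13 where that moved them.

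At 7d no gene passed the threshold for a differentially expressed gene (DEG, more than 1 log2 unit apart with a Benjamini-Hochberg adjusted p under 0.05) in a moderated linear model of all 15269 genes (limma, background 0%), and the smallest limma adjusted p was 0.453. At an unadjusted p below 0.05, 894 genes were higher after MABs-allo (5.86% of those tested) and 363 were lower (2.38%). All 4 MABs-allo values lay above all 4 saline values in 527 genes (3.45%) and below them in 267 (1.75%). Across all genes 52% had a log2 fold change above 0. Of the 1257 genes with an unadjusted p below 0.05, 71.1% were higher after MABs-allo, and this split was 60.7% when samples were scaled to the same total and 58.4% when reads were thinned to the depth of the shallowest sample. The groups did not separate on the first principal component of the 500 most variable genes, which carried 23.6% of the variance (difference of means 15.1, two-sided exact permutation p = 0.457, the smallest possible being 0.0286). In a component analysis of all 24 samples the same groups did separate (difference 14.4, exact permutation p = 0.0286), and without saline replicate 5 the difference within the 8 samples turned to −2.4 (exact permutation p = 0.857).

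The count models run on the recovered reads differed from each other. DESeq2 called 56 DEGs, of which 49 were higher after MABs-allo (0.446% of the 10975 genes given an adjusted p) and 7 were lower (0.0638%). The quasi-likelihood test of edgeR called 0 DEGs, with 872 genes higher and 409 lower at an unadjusted p below 0.05. The DESeq2 count went to 0 without MABs-allo replicate 7.2, to 5 without saline replicate 5, to 10 without MABs-allo replicate 9 and to 302 without MABs-allo replicate 11. Without replicate 11 limma called 2 DEGs, both higher after MABs-allo: the kinesin heavy chain Kif5b (log2 fold change 1.66, limma adjusted p = 0.0203) and the gastrokine Gkn3 (log2 fold change 3.07, limma adjusted p = 0.00417). Genes are therefore described by their values in each sample, and "higher" or "lower" refers to the MABs-allo samples against the saline samples at 7d. Fold changes are on the log2(normalised count + 1) scale, which understates the change of low genes.

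The 12 genes with the smallest p among those at least 2-fold higher act in translation, the endoplasmic reticulum, chromatin and cell shape. The ribosome-binding protein Rrbp1 (ENSRNOG00000005958), which anchors ribosomes and mRNA at the endoplasmic reticulum, was at 771, 1118, 780 and 814 normalised counts after saline and at 1905, 2500, 1957 and 1482 after MABs-allo (log2 fold change 1.16 ± 0.21 SE, limma adjusted p = 0.453). Pdia3, a disulfide isomerase that folds glycoproteins in the same compartment, was at 1755 to 3435 after saline and at 4295 to 6474 after MABs-allo (1.08 ± 0.23). The lowest treated sample was above the highest saline sample in both genes. Pabpc1, which coats poly(A) tails, was at 5828, 7804, 5466 and 5270 after saline and at 16671, 17987, 9625 and 11330 after MABs-allo (1.16 ± 0.24). The initiation factor subunit Eif3a was at 3409 to 3923 after saline and at 7908, 9228, 4939 and 8831 after MABs-allo (1.01 ± 0.21). Eif4ebp2, a repressor of cap-dependent initiation, was at 1016 to 1464 after saline and at 3720, 3543, 1842 and 2864 after MABs-allo (1.22 ± 0.24). In these 3 translation genes MABs-allo replicate 11 was the lowest treated sample, and it still lay above every saline sample.

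Genes of chromatin and DNA repair formed the next group. The histone deacetylase Hdac1 (ENSRNOG00000009568) was at 379, 413, 358 and 302 normalised counts after saline and at 756, 980, 787 and 573 after MABs-allo (log2 fold change 1.07 ± 0.23, limma adjusted p = 0.453). Rif1, which controls replication timing and break repair, was at 211 to 383 after saline and at 942, 1371, 555 and 747 after MABs-allo (1.61 ± 0.30). Ercc2, a helicase of the repair and transcription factor TFIIH, was at 440, 393, 342 and 308 after saline and at 740, 762, 699 and 855 after MABs-allo (1.0 ± 0.20). In Ercc2 the treated samples differed little from each other, with replicate 11 again the lowest, and in Rif1 they ranged more widely. The chromatin protein Nucks1 was at 1170 to 1770 after saline and at 2374 to 3934 after MABs-allo (1.03 ± 0.21). Zfc3h1, a zinc finger protein that targets nuclear RNA for decay, was at 195 to 308 after saline and at 437 to 1417 after MABs-allo (1.71 ± 0.34). The remaining members of the 12 organise signalling at the cytoskeleton. Akap2, an anchor of protein kinase A, was at 342, 316, 322 and 170 after saline and at 1267, 1573, 490 and 1033 after MABs-allo (1.85 ± 0.36), and Arhgap5, a GTPase-activating protein, was at 63.6 to 82.1 after saline and at 344, 662, 145 and 249 after MABs-allo (2.0 ± 0.43). All 12 genes were without overlap between the groups, beside 3.45% of all genes, and their DESeq2 adjusted p ran from 0.00334 for Akap2 to 0.0333 for Pdia3, in neither case as a test, since the 12 were picked for a small p on these samples.

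**Figure D1:**
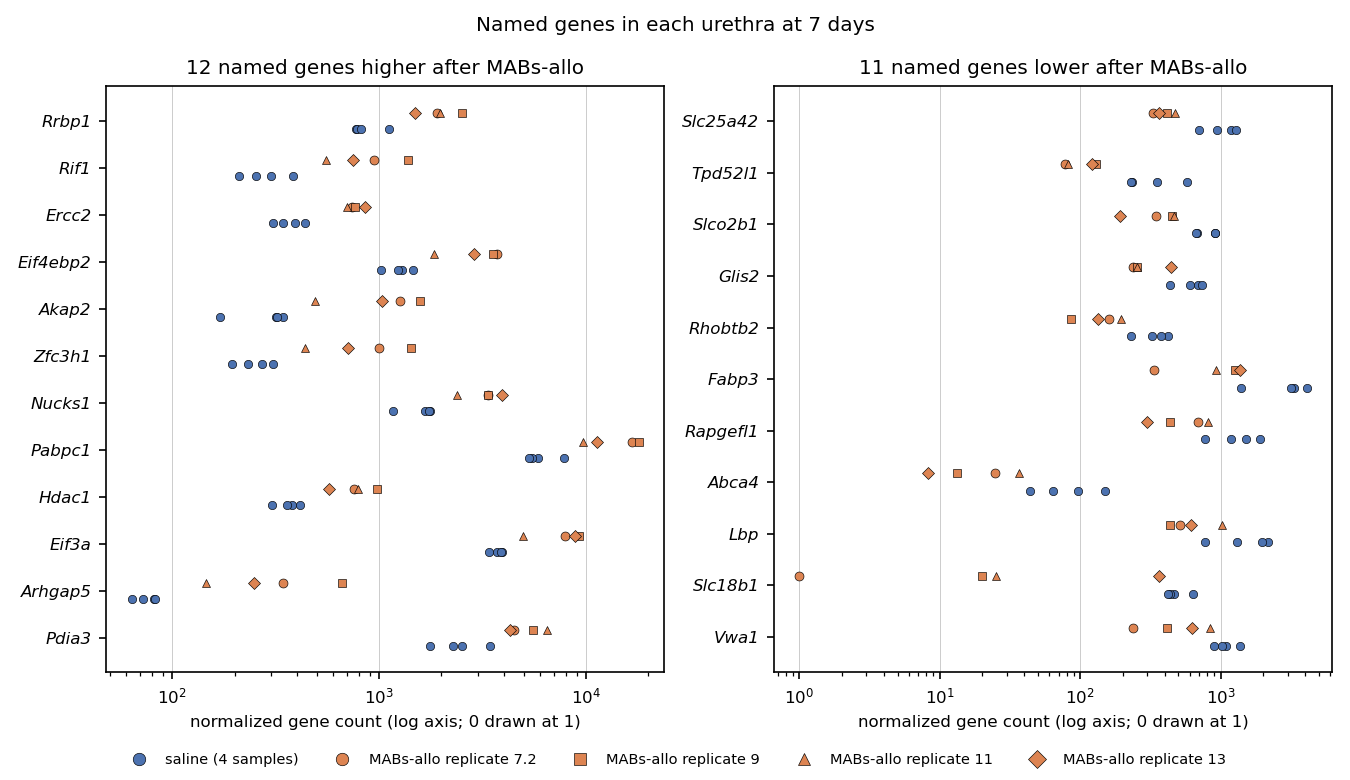
Normalised counts on a log axis of the 12 genes with the smallest p among those at least 2-fold higher and 11 of the 12 among those at least 2-fold lower after MABs-allo at 7d, with 1 point per sample (blue saline, n = 4; orange MABs-allo, n = 4, with a marker for each replicate; 0 is drawn at 1). All 12 higher genes and 8 of the 11 lower genes, picked for a small p on these samples, show no overlap between the groups. Slc18b1 spans 0 to 361 normalised counts after MABs-allo.

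Several of the 11 lower genes described here handle coenzyme A, lipids and organic anions. Slc25a42 (ENSRNOG00000020345), the carrier that brings coenzyme A into mitochondria, was at 1184, 702, 938 and 1292 normalised counts after saline and at 331, 417, 470 and 361 after MABs-allo (log2 fold change −1.35 ± 0.24 SE, limma adjusted p = 0.453). Its 4 treated values were the most tightly grouped of the lower genes, and its DESeq2 adjusted p was 0.0025, the smallest of all genes. Fabp3, the fatty acid binding protein of heart and skeletal muscle, was at 3311, 1401, 4093 and 3160 after saline and at 335, 1255, 932 and 1378 after MABs-allo (−1.70 ± 0.44, DESeq2 adjusted p = 0.0321). The highest treated Fabp3 value lay just below the lowest saline value. Slco2b1, an uptake transporter of organic anions, was at 663 to 916 after saline and at 191 to 465 after MABs-allo (−1.18 ± 0.30, DESeq2 adjusted p = 0.0552). Abca4, a lipid transporter best known from the retina, was at 43.5 to 151 after saline and at 8.3 to 36.7 after MABs-allo (−2.10 ± 0.59), with some treated values near the floor.

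The other lower genes had mixed roles. Tpd52l1, of the tumour protein D52 family, was at 231 to 575 normalised counts after saline and at 77.4 to 129 after MABs-allo (log2 fold change −1.69 ± 0.36), and Rhobtb2, an adaptor for protein degradation, was at 231 to 419 after saline and at 86.1 to 194 after MABs-allo (−1.26 ± 0.32). Vwa1, a matrix protein of basement membranes and nerve, was at 899 to 1366 after saline and at 239, 414, 839 and 627 after MABs-allo (−1.18 ± 0.34). In these 3 genes every treated sample was below every saline sample. Slc18b1, a polyamine transporter, was listed at 0 in MABs-allo replicate 7.2, at 19.9 in replicate 9 and 25 in replicate 11, and at 361 in replicate 13, against 421 to 633 after saline (−4.52 ± 1.29, where the value at 0 weighs heavily on the log scale, and −2.35 by DESeq2, adjusted p = 0.578). Its treated samples thus differed more among themselves than the saline samples did. The groups overlapped in Glis2, a zinc finger repressor (−1.08 ± 0.27), in Rapgefl1, a guanine nucleotide exchange factor (−1.29 ± 0.35), and in Lbp, which presents bacterial lipopolysaccharide to its receptors (−1.23 ± 0.35). Of the 11 lower genes 8 were without overlap, beside 1.75% of all genes, and DESeq2 gave 5 of the 11 an adjusted p below 0.05. Neither is a test, since the 11 were picked for a small p on these samples.

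Promoters of 4 genes are shown to place these transcripts in the genome. Rrbp1 and Hdac1 are from the higher genes, Slc25a42 is from the lower genes described above, and Acot2 is from the lower genes of fatty acid metabolism. Each is the RefSeq window of 300 bases over the transcript start, ending 50 bases after it, on assembly GRCr8, with the dinucleotide CG in capitals. Rrbp1 lies on the minus strand at chr3:151830206-151830505, Hdac1 on the minus strand at chr5:147165338-147165637, Slc25a42 on the plus strand at chr16:19247724-19248023 and Acot2 on the plus strand at chr6:109342590-109342889.
Rrbp1: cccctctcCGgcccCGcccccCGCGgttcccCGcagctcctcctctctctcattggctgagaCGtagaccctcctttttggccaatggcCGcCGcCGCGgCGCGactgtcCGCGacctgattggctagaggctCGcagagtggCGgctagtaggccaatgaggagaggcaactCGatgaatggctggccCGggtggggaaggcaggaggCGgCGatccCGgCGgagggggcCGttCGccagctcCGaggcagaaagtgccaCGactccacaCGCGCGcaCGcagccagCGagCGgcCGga
Hdac1: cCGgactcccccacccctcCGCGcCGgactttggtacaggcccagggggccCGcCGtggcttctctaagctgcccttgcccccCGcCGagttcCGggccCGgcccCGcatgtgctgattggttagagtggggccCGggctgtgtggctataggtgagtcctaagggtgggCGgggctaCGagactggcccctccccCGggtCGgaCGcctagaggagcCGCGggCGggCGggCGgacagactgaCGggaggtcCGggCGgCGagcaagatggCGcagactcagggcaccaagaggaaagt
Slc25a42: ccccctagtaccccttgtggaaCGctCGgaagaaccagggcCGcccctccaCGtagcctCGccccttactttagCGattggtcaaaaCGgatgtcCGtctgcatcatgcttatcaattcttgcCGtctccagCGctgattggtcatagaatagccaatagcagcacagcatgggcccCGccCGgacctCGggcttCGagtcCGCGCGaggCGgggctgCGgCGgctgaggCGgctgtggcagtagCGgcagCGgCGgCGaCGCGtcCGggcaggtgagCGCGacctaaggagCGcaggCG
Acot2: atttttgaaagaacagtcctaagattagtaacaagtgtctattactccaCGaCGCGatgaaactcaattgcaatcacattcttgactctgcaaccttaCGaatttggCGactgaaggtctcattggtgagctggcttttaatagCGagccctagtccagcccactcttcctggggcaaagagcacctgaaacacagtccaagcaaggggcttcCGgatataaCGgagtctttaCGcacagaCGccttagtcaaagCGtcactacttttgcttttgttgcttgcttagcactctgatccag
The CG count per window was 33 for Rrbp1, 27 for Hdac1, 32 for Slc25a42 and 11 for Acot2, beside a median of 20 over the 10036 tested genes with a window and of 7 over all 33469 windows, of which 94.5% held at least 1. A window was matched for 8 of the 12 higher and 7 of the 11 lower genes, too few for a check of base composition over either group, which is therefore void. The bases AGGTCA, a motif bound by several nuclear receptors, searched on both strands as AGGTCA and TGACCT, were in none of these 4 windows. The search took in only the matched windows of the named genes, the lower fatty acid genes and the remodelers higher at an unadjusted p below 0.05. The motif was in Ercc2, 1 of 8 higher genes, and in Ucp3, 1 of 4 lower fatty acid genes. It was in 0 of 7 lower genes and 0 of 9 remodelers, beside 12.1% of the windows of tested genes and 16.2% of all windows. Other genes described were not searched.

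Lists of genes with a shared role were then described by their counts and medians. Of 43 lists, chromatin remodelers had the most members higher after MABs-allo at an unadjusted p below 0.05, and fatty acid and ketone metabolism had the most members lower. The remodeler list holds factors that slide or evict nucleosomes and also DNA-binding proteins such as Arid5b. Of its 31 genes tested, 11 were higher at that p and 0 were lower, beside 5.86% and 2.38% of all genes. Of the 31, 27 had a log2 fold change above 0, with a median of 0.316 beside 0.022 over all genes. Of 36 genes of histone lysine methylation, 9 were higher and 0 lower at that p (median 0.252), and of 28 of DNA methylation and histone acetylation, 5 were higher and 0 lower (median 0.223). None of these members was a DEG in limma.

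Among the remodelers, Chd1, which opens chromatin at transcribed genes, was at 216, 167, 218 and 91.2 normalised counts after saline and at 496, 798, 220 and 772 after MABs-allo (log2 fold change 1.63 ± 0.43, DESeq2 adjusted p = 0.0288). Arid5b, a DNA-binding partner of a histone demethylase, was at 248 to 519 after saline and at 1059, 1758, 652 and 1008 after MABs-allo (1.42 ± 0.32, DESeq2 adjusted p = 0.0175). Subunits of the SWI/SNF complex were also higher. Smarcc1 was at 931 to 1316 after saline and at 2168, 2341, 1808 and 1506 after MABs-allo (0.74 ± 0.20), Arid1a at 752 to 1269 and at 2020, 2358, 1283 and 1739 (0.80 ± 0.24), and Pbrm1 at 304 to 358 and at 589, 745, 379 and 444 (0.67 ± 0.25). In all 5 of these genes every MABs-allo sample was above every saline sample, and replicate 11 lay just above the saline range in Chd1, Arid1a and Pbrm1.

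Of the enzymes that write and erase marks, Tet2, which oxidises methylated cytosine, was at 196, 187, 184 and 119 normalised counts after saline and at 489, 629, 175 and 726 after MABs-allo (log2 fold change 1.40 ± 0.42, DESeq2 adjusted p = 0.0481). The H3K79 methyltransferase Dot1l was at 182 to 331 after saline and at 431, 772, 355 and 764 after MABs-allo (1.09 ± 0.32), and the acetyltransferase Kat6a was at 75.5 to 231 and at 211, 394, 177 and 415 (1.18 ± 0.41). Kdm6a, an H3K27 demethylase, was at 105 to 184 after saline and at 319, 308, 127 and 295 after MABs-allo (0.84 ± 0.36). Dot1l was without overlap, replicate 11 alone lay within the saline range in Tet2 and Kdm6a, and both replicates 7.2 and 11 did in Kat6a. Ehmt1, an H3K9 methyltransferase, was low, at 0, 14.9, 6.7 and 3.14 after saline and at 24.8, 26.5, 21.7 and 41.5 after MABs-allo (2.60 ± 0.85). In 3 of 4 saline samples it was at or under 3 reads, so the size of its fold depends on the constant added before the logarithm.

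Lists for transcription and splicing were also higher in part. In transcription elongation and topoisomerases 5 of 22 genes were higher and 0 lower at an unadjusted p below 0.05 (median 0.368), and in splicing factors of the SR and hnRNP families 8 of 33 were higher and 0 lower (median 0.326, 28 above 0), beside 5.86% and 2.38% of all genes. The splicing count was 3 without MABs-allo replicate 7.2, 4 without replicate 9 and 4 without saline replicate 5. The elongation count was 3 without each of these samples and 8 without replicate 11. The number over all genes moved as well, from 894 of 15269 higher to 603 of 15234 without replicate 7.2 and 614 of 15246 without replicate 9. It was 575 of 15298 without saline replicate 5 and 1240 of 15252 without replicate 11. Top1, which relaxes supercoils ahead of the polymerase, was at 352 to 538 normalised counts after saline and at 1295, 2328, 732 and 706 after MABs-allo (log2 fold change 1.43 ± 0.35, DESeq2 adjusted p = 0.0267), and the elongation kinase Cdk12 was at 201 to 291 and at 579, 775, 317 and 515 (1.04 ± 0.29). Srrm1, a splicing coactivator, was at 1079 to 1215 after saline and at 2404, 3026, 1401 and 2229 after MABs-allo (0.94 ± 0.23, DESeq2 adjusted p = 0.0413). In these 3 genes the groups did not overlap.

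**Figure D2:**
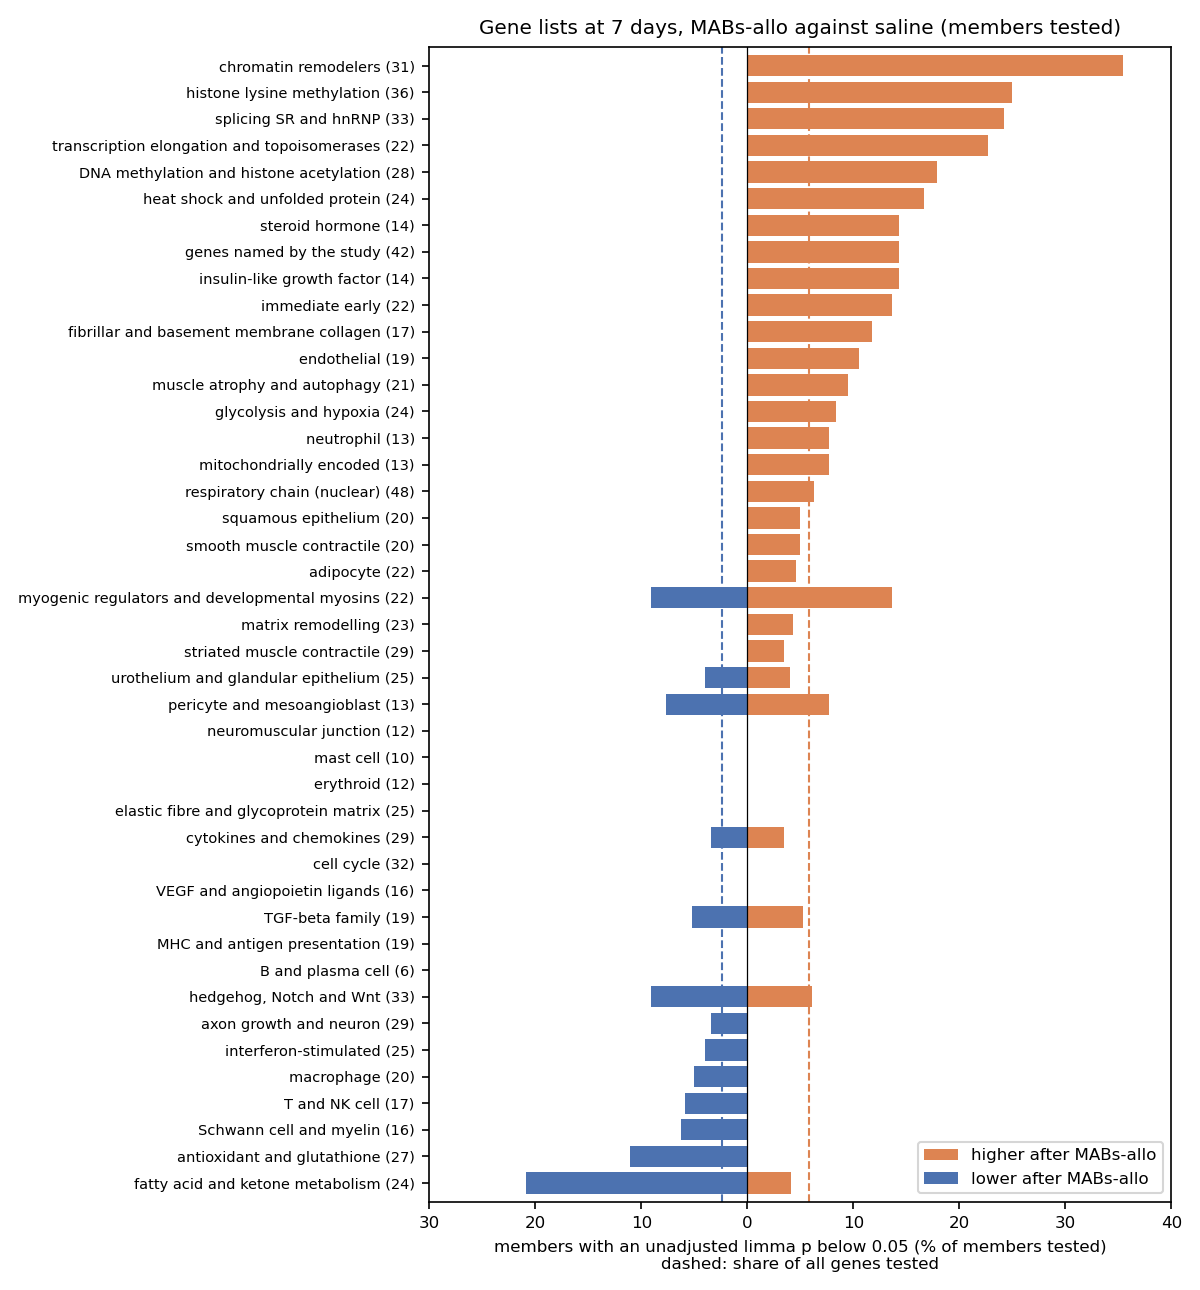
Share of the tested members of each of 43 gene lists with an unadjusted limma p below 0.05 at 7d, as a percentage, with bars to the right for members higher and to the left for members lower after MABs-allo, and dashed lines at the shares of all genes (5.86% and 2.38%). Chromatin remodelers have 11 of 31 members higher and fatty acid and ketone metabolism has 5 of 24 lower.

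The MABs-allo samples did not share this pattern equally. The mean log2 level of the chromatin remodelers, set to 0 at the saline mean, was 0.42 in replicate 7.2, 0.82 in replicate 9, 0.54 in replicate 13 and 0.02 in replicate 11, with the saline samples from −0.23 to 0.14. For histone lysine methylation the same scores were 0.49, 0.58, 0.44 and 0.02, and for splicing factors 0.39, 0.40, 0.62 and 0.11, in the same order of replicates. Replicate 11 thus lay within the saline range for all 3 of these lists. It was the lowest of the 4 treated samples in 20 of the 31 remodelers (64.5%), against 26.3% of all genes. Without replicate 11 the number of remodelers higher at an unadjusted p below 0.05 was 15, beside 8.13% of all genes higher and 4.37% lower, and without replicate 13 it was 13, beside 6.06% and 3.32%. The histone lysine methylation count was 13 without replicate 11 and 7 without replicate 13. Without replicate 9, the sample with the highest score in both lists, 7 remodelers and 4 histone lysine methylation genes were higher at that p. The number over all genes fell there too, to 614 of 15246 from 894 of 15269. Replicate 11 was also the deepest library and the highest for cell cycle genes, as given further on, and the part of either in these scores was not tested.

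**Figure D3:**
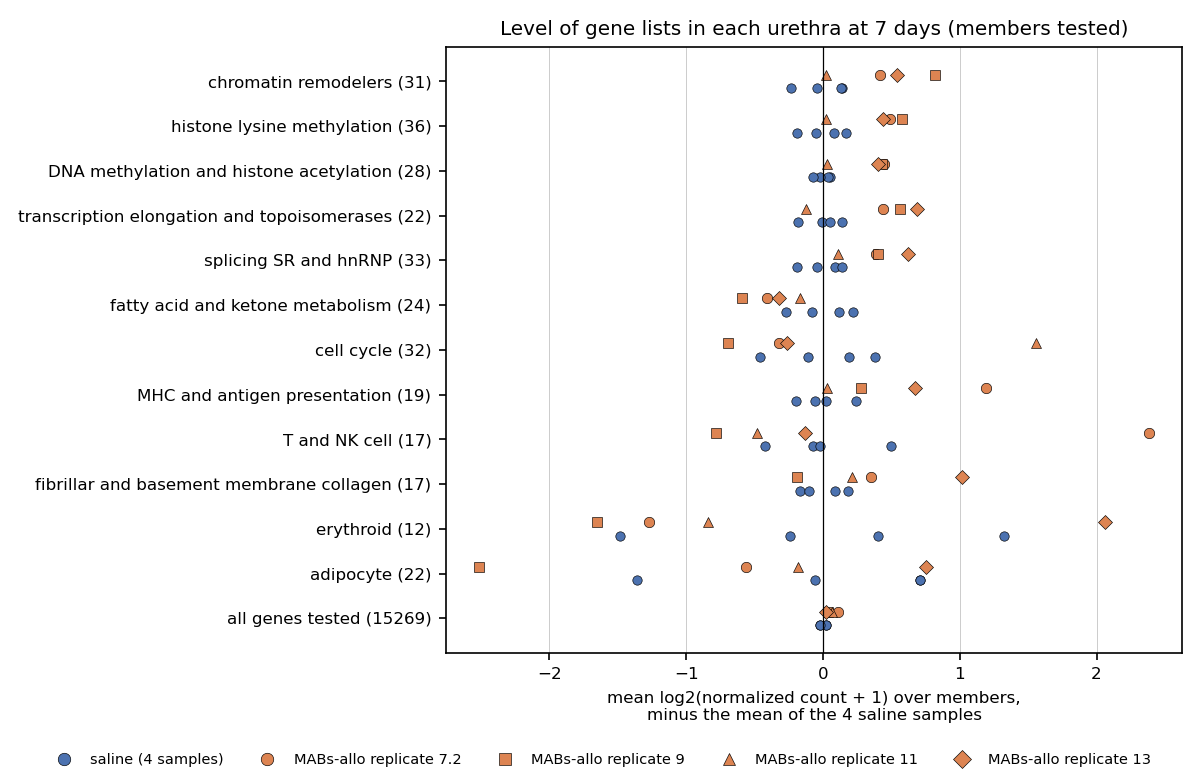
Mean log2(normalised count + 1) over the members of 12 lists and of all genes in each of the 8 samples at 7d, as the difference from the saline mean, with 1 point per sample (n = 4 saline, n = 4 MABs-allo). For the chromatin remodelers replicates 7.2, 9 and 13 sit at 0.42 to 0.82 and replicate 11 at 0.02, inside the saline range of −0.23 to 0.14.

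Genes of fatty acid oxidation and ketone metabolism were lower in part after MABs-allo: 5 of 24 at an unadjusted p below 0.05 beside 2.38% of all genes, 1 higher, 7 with a log2 fold change above 0 and a median of −0.357. Beside Fabp3, described above, these were Acot2, Acaa2, Ucp3 and Acot1. The mitochondrial thioesterase Acot2, which releases fatty acids from coenzyme A, was at 2682, 2395, 2827 and 3478 normalised counts after saline and at 1635, 1507, 1935 and 1764 after MABs-allo (log2 fold change −0.73 ± 0.18, limma adjusted p = 0.453, DESeq2 adjusted p = 0.0318). Acaa2, the thiolase that ends each round of β-oxidation, was at 1785 to 3132 after saline and at 1242, 1434, 1513 and 896 after MABs-allo (−0.77 ± 0.24). The groups did not overlap in either gene. The uncoupling protein Ucp3 was at 920 to 1717 after saline and at 1044, 626, 647 and 573 after MABs-allo (−0.85 ± 0.27), with 1 treated sample inside the saline range. Acot1 was at 74.4 to 492 after saline and at 8.3 to 113 after MABs-allo (−2.20 ± 0.81). It is a close copy of Acot2, and since reads that mapped to several places had been discarded, the counts of both are uncertain. Acadvl, the dehydrogenase of very long chains, was the member that was higher, at 640 to 1072 after saline and at 1129 to 1775 after MABs-allo (0.63 ± 0.23), without overlap. The score of the list was −0.41, −0.59, −0.17 and −0.32 in MABs-allo replicates 7.2, 9, 11 and 13, with the saline samples from −0.27 to 0.22. Replicate 11 thus lay within the saline range and replicate 13 just below it. At that p, 8 members were lower without replicate 11 (4.37% of all genes) and 7 without replicate 13 (3.32%).

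**Figure D4:**
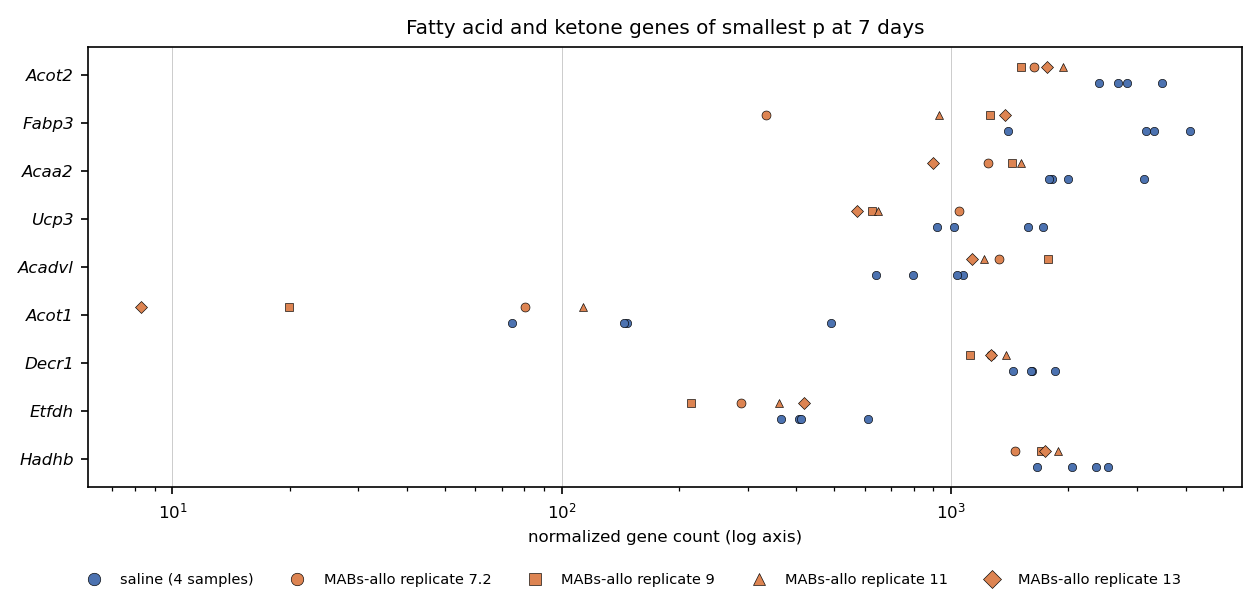
Normalised counts on a log axis of the 9 members of the fatty acid and ketone metabolism list with the smallest p, in the 4 saline (blue) and the 4 MABs-allo (orange) samples at 7d, with 1 point per sample. Acot2 spans 2395 to 3478 after saline and 1507 to 1935 after MABs-allo, and Acadvl is higher after MABs-allo.

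Neighbouring metabolic and stress lists are given beside the same shares of all genes, 5.86% higher and 2.38% lower. Without replicate 13 these shares were 6.06% and 3.32%. Of 27 antioxidant and glutathione genes, 3 were lower and 0 higher at an unadjusted p below 0.05 (median −0.122), and 5 were lower without replicate 13. The catalase gene Cat was at 4478, 3194, 4441 and 4764 normalised counts after saline and at 2456, 2709, 3094 and 3179 after MABs-allo (log2 fold change −0.55 ± 0.19), without overlap, and the glutathione transferase Gsta1 was at 1523 to 4806 and at 762 to 1648 (−1.17 ± 0.35). Of 24 heat shock and unfolded protein genes, 4 were higher and 0 lower (median 0.15). The chaperone Hspa8 was at 616 to 1011 after saline and at 1008 to 1119 after MABs-allo (0.51 ± 0.20), so its groups overlapped slightly. Hspa1b was at 2031 to 4478 and at 3388 to 8887 (1.08 ± 0.32). It has a near-identical neighbour, Hspa1a, so its counts are uncertain. Of 48 respiratory chain genes, 3 were higher and 0 lower, and without replicate 13 it was 1 higher and 2 lower of 49.

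In muscle, some regulators of new fibres were lower after MABs-allo and some structural genes were higher. Myog, the factor that commits myoblasts to fuse, was at 1925, 953, 1410 and 1094 normalised counts after saline and at 418, 669, 1239 and 245 after MABs-allo (log2 fold change −1.26 ± 0.43, limma adjusted p = 0.505). Myod1, which acts before it, was at 207 to 305 after saline and at 74.3, 288, 212 and 58.1 after MABs-allo (−1.09 ± 0.48). In both genes replicates 7.2 and 13 were below every saline sample and replicate 11 was within the saline range. The perinatal myosin Myh8 was at 107 to 183 after saline and at 220, 1013, 212 and 361 after MABs-allo (1.38 ± 0.46), and the intermediate filament Des was at 16189 to 24197 and at 25839, 26109, 37860 and 32092 (0.55 ± 0.23), both without overlap. The slow myosin Myh7 was at 714 to 1052 after saline and at 846 to 2417 after MABs-allo (0.77 ± 0.30), with overlap. These genes were picked for a small p. In all, 3 of 22 myogenic regulators and developmental myosins were higher and 2 lower at an unadjusted p below 0.05 (median 0.056). Of 29 striated contractile genes 1 was higher and 0 lower (median 0.144), and of 20 smooth muscle genes 1 was higher and 0 lower. Over all genes 5.86% were higher and 2.38% lower at that p. Without replicate 11, 4 of the 29 striated contractile genes were higher, beside 8.13% of all genes, and without replicate 13 it was 0. No gene of the 12 of the neuromuscular junction passed that p with all 8 samples (median −0.296). Without replicate 13, 1 was higher and 2 lower of 11, beside 6.06% and 3.32% of all genes. Among 16 Schwann cell genes 1 was lower at that p, the lineage factor Sox10, at 548, 219, 1457 and 135 after saline and at 115 to 170 after MABs-allo (−1.54 ± 0.60, DESeq2 adjusted p = 0.0481), where saline replicate 5 lay within the treated range. Of the 16, 13 had a log2 fold change below 0 (median −0.422). Without replicate 13, 4 of the 16 were lower, beside 3.32% of all genes (median −0.649).

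Markers of other cell types were counted in the same way. Of 20 macrophage genes 1 was lower and 0 higher at an unadjusted p below 0.05 (median −0.289), and of 19 endothelial genes 2 were higher and 0 lower (median 0.137). Over all genes 5.86% were higher and 2.38% lower at that p. Those shares were 8.13% and 4.37% without replicate 11, and 6.06% and 3.32% without replicate 13. None of 10 mast cell genes and none of 12 erythroid genes passed that p. Without replicate 13, the library with the highest globins, 4 of the 12 erythroid genes were lower (median −1.324), as were 1 mast cell and 3 macrophage genes, beside 3.32% of all genes. Of 19 genes of the major histocompatibility complex (MHC) and antigen presentation, 18 had a log2 fold change above 0 (median 0.494), yet none passed that p, while 3 were higher without replicate 11 and 2 without replicate 13. The class II gene RT1-Da was at 3480, 1909, 1842 and 1384 normalised counts after saline and at 8484, 3679, 1523 and 5702 after MABs-allo (1.0 ± 0.46). Its highest value was in replicate 7.2, and its value in replicate 11 was inside the saline range. Of 17 collagens 2 were higher and 0 lower (median 0.312), and without replicate 13 it was 1, with a median of −0.036. The fibril-associated collagen Col14a1 was at 119 to 378 after saline and at 626, 748, 274 and 585 after MABs-allo (1.34 ± 0.40). Of 22 adipocyte genes 1 was higher and 0 lower (4 lower without replicate 13), and the median of −0.822 came with scores of −2.51 in replicate 9 and 0.75 in replicate 13.

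Lists for growth factors and for the vessel wall, the site that mesoangioblasts come from, are also set beside the 5.86% of all genes higher and 2.38% lower. These shares were 8.13% and 4.37% without replicate 11, and 6.06% and 3.32% without replicate 13. Of 13 pericyte and mesoangioblast genes 1, Des, was higher and 1 was lower, the channel subunit Kcnj8, at 418 to 971 normalised counts after saline and at 390, 546, 389 and 378 after MABs-allo (log2 fold change −0.61 ± 0.27). None of 16 VEGF and angiopoietin genes passed an unadjusted p below 0.05, and without replicate 13 there were 2 that were lower. Of 14 insulin-like growth factor genes 2 were higher, the binding proteins Igfbp2 (0.70 ± 0.27) and Igfbp5 (0.59 ± 0.23), and of 14 steroid hormone genes 2 were higher, or 5 without replicate 11. The oestrogen receptor Esr1 was low, at 16.7 to 44.8 after saline and at 105, 185, 75.1 and 45.7 after MABs-allo (1.47 ± 0.53), without overlap. Of 33 hedgehog, Notch and Wnt genes 2 were higher and 3 lower (6 lower without replicate 13, 1 without replicate 11), among them the secreted Wnt antagonist Sfrp1, at 2751 to 3436 after saline and at 1499, 2023, 2591 and 2556 after MABs-allo (−0.55 ± 0.21), without overlap. Of 19 TGF-beta family genes 1 was higher and 1 lower, the ligand Tgfb3, at 1038 to 1632 and at 725, 682, 1248 and 593 (−0.64 ± 0.26).

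The genes that the study names from its other mRNAseq comparisons were chosen on samples that include these, so their counts are not independent evidence. Of the 42 tested, 6 were higher and 0 lower at an unadjusted p below 0.05, beside 5.86% and 2.38% of all genes. These were Hdac1, Tet2, Ehmt1, Kat6a and Kdm6a, described above, and Srgap1, a GTPase-activating protein of guidance signalling. Srgap1 was at 3.14 to 16.9 normalised counts after saline and at 20 to 86.1 after MABs-allo (log2 fold change 2.33 ± 0.67), where most saline values were at or under 3 reads. The median over the 42 was −0.243, with fold changes from −2.0 for Pck1, the gluconeogenic and adipocyte enzyme, to 2.60 for Ehmt1. Dio3, which inactivates thyroid hormone, was at 101 to 139 normalised counts after saline and at 18.6, 39.7, 63.4 and 183 after MABs-allo, so 3 treated samples lay below the saline range and replicate 13 above it. Pck1 had a mean of 1887 ± 2285 (SD, n = 4) after saline and of 565 ± 754 (SD, n = 4) after MABs-allo, with a saline SD larger than the difference of the means.

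The same contrast 3 days (3d) after SVD was made in other samples and is given only to place the 7d values. In a limma fit of both days, 3d had 1395 DEGs, and 2219 without saline 3d replicate 6, a library that stood apart. The 7d and 3d fold changes had a Pearson r of 0.311 across 15269 genes, which are not independent replicates. Of the 894 genes higher at 7d, 83.6% had a fold change above 0 at 3d, and of the 363 lower genes 25.3% did, against 50% of all genes. Of the 12 named higher genes, 11 were higher at 3d too, 7 of them at an unadjusted p below 0.05 (background at 3d 17.3% higher, 11.8% lower). Arhgap5 had a log2 fold change of 2.17 at 3d and Rrbp1 of 1.66, while Ercc2 had one of −0.13. Of the 11 lower genes 8 were lower at 3d, and Fabp3, Tpd52l1 and Rapgefl1 had fold changes of 0.34, 0.48 and 0.58 there. Without saline 3d replicate 6 these were −0.15, 0.07 and 0.68, and 9 of the 11 were lower.

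No interaction between treatment and day passed the adjusted threshold in limma (0% of 16270 genes, smallest adjusted p = 0.0855, with 886 genes above and 1337 below at an unadjusted p below 0.05), and 287 passed it without saline 3d replicate 6. Over the 15269 genes, the change at 7d was above that at 3d at an unadjusted p below 0.05 in 5.72% and below it in 6.69%. Myog was lower at 7d and higher at 3d (log2 fold change 1.35), a difference of −2.61 (unadjusted interaction p from limma 0.0016), and the Myod1 difference was −2.18. Myh8 was higher on both days, with a fold change of 4.51 at 3d and a difference of −3.13. RT1-Da went the other way, with −1.42 at 3d and a difference of 2.42 (unadjusted interaction p from limma 0.0009). By list, 7 of 22 myogenic regulators had such an interaction and in all 7 the 7d change was the smaller or more negative, as it was in 6 striated contractile genes and 9 of histone lysine methylation. In 10 of 11 endothelial, 7 of 7 macrophage, 7 of 7 mast cell and 7 of 8 MHC genes with such an interaction, the 7d change was the higher. The median fold change of the macrophage list was −1.734 at 3d and −0.289 at 7d, and that of the striated contractile list was 1.423 and 0.144.

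**Figure D5:**
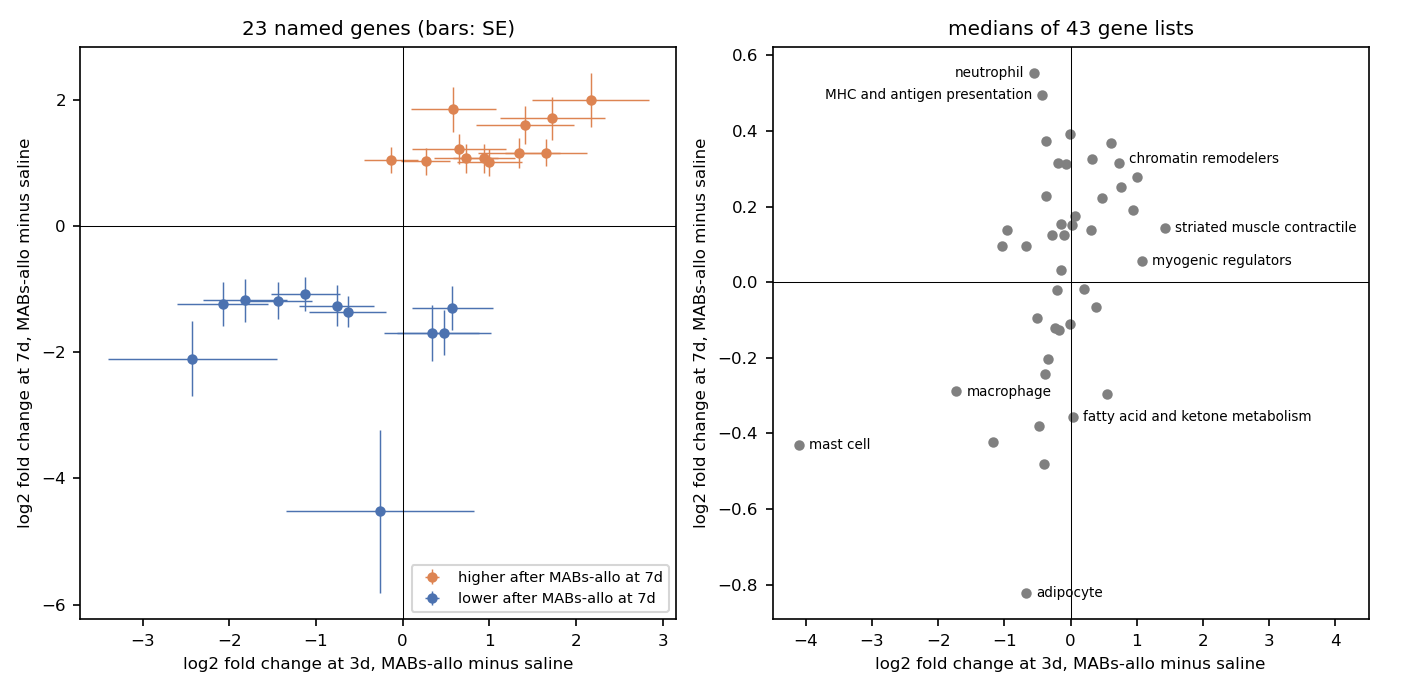
Log2 fold changes of MABs-allo against saline at 7d (vertical) and 3d (horizontal), on the log2(normalised count + 1) scale, for 23 named genes with SE bars and for the medians of 43 gene lists. Of the 12 higher genes 11 lie right of 0, and the mast cell and macrophage lists lie far to the left at 3d and near −0.43 and −0.289 at 7d.

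Rats given mesoangioblasts overexpressing VEGF were compared in the study with the same saline samples, so their values stand beside these without a test. Some of the VEGF samples at 7d carry the label recovery and the others do not, and the means given here pool them. At 7d Rrbp1 was at 1913 ± 671 normalised counts (SD, n = 4) after the VEGF cells, beside 1961 ± 418 after MABs-allo and 871 ± 166 after saline. Hdac1 was at 758 ± 200, 774 ± 167 and 363 ± 46.7, and Arhgap5 at 217 ± 114, 350 ± 223 and 74.8 ± 8.67, in the same order. Of the lower genes, Slc25a42 was at 412 ± 135, 395 ± 61.6 and 1029 ± 264. These genes were picked for a difference from the same saline samples, so the side on which the VEGF cells fall is not independent. Fabp3 was at 1627 ± 1954 after the VEGF cells, a spread that covers both its MABs-allo mean of 975 ± 466 and part of the saline values.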

How the data were processed

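Urethral RNA of 24 rat samples in 6 groups was sequenced by the authors with the QuantSeq 3ʹ kit as single 50-base reads. Reads were trimmed with fastq-mcf and aligned to Rnor6.0 with HISAT2, reads mapping to several places were discarded, and genes were counted with HTSeq. The HISAT2 version is not given in the sources used here. The deposited values are a signal, gene counts that the authors divided by DESeq2 size factors, so genes with near-identical copies are uncertain. Tag sites near the 3ʹ end make levels nearly independent of transcript length, but no levels were compared between genes. Every value was a whole multiple of 1 read within 0.01 reads (100%), which gave back the read counts, and 1 read was worth 1.67 to 4.15 normalised counts in these 8 samples, so low genes carry the largest counting error. No 2 samples of a group agreed within sampling noise (chi-square per degree of freedom 28.72 to 132.89).

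Groups came from the labels. log2(value + 1) of the 8 samples at 7d was fitted with limma 3.58.1 (trend, two-sided, Benjamini-Hochberg) in R 4.3.3, with the genes at a mean of at least 2. The interaction with day was fitted on 16 samples. edgeR 4.0.16 and DESeq2 1.42.0 (with and without ashr 2.2.63) were run on the recovered reads as alternatives, together with pseudocounts, filters, scalings, thinning, array weights and each sample left out. Named genes were the 12 with the smallest p in each direction among those at least 2-fold changed with a mean of at least 20. Other genes named are members of 43 lists, chosen by role and small p. Some genes and 1 list are not reported here. A total of 2672 symbols occur more than once and were kept by gene identifier. The comparison, the members and the lists were chosen with earlier results of these data known. Scripts were tested on simulated data. Promoters came from RefSeq (GRCr8), a different assembly from that of the alignment, and no coordinates were converted.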

Additional observations from a re-analysis of the deposited data

Results flagged for a closer look

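Of 140 sets of 4 samples examined (23 named genes, 43 gene lists summed over members, and 4 library measures, namely reads, total normalised count, the share of the top 10 genes and the PC1 score, each within saline or MABs-allo), 16 had 1 sample whose gap to the others exceeded Dixon's critical value of 0.829, where chance flags about 1 in 20. Among the genes these were Rrbp1 in saline replicate 2 (1118 normalised counts, the others up to 814.4), Akap2 in saline replicate 5 (169.8), Nucks1 in saline replicate 5 (1170), and Glis2 and Slc18b1 in MABs-allo replicate 13 (444.1 and 361.1). MABs-allo replicate 11 was set apart by its 10170000 reads.

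MABs-allo replicate 13 had 6 of the 16. The summed erythroid genes, mostly globins, were at 1938000 normalised counts there and at 178100 to 273500 in the other MABs-allo samples, the collagens at 677300 against 251400 to 273700, the muscle atrophy and autophagy genes, a list that holds metallothioneins, at 155500 against 45110 to 51540, and the genes named by the study, which include globins, at 654000 against 66800 to 93660.

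MABs-allo replicate 7.2 was high for lymphocyte genes, with B and plasma cell genes at 3547 normalised counts against 251.9 to 406.7 and T and NK cell genes at 2165 against 261.9 to 576.9, and low for neuromuscular junction genes, at 5362 against 7697 to 8046. Cytokines and chemokines summed to 62940 in MABs-allo replicate 9 against 21900 to 27480. Fatty acid and ketone genes summed to 52520 in MABs-allo replicate 11 against 38480 to 39590. Steroid hormone genes summed to 14190 in saline replicate 3 against 9965 to 10100.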

How the results depend on the processing

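No paired analysis was possible because the saline and MABs-allo samples at 7d share no replicate number. The 0 DEGs at 7d became 56 with DESeq2 and 12 with ashr shrinkage, in 7 and 0 of the gene lists, and 0 to 2 with a sample left out (2 without MABs-allo replicate 11). The DESeq2 count was 0 to 302 with a sample left out (0 without MABs-allo replicate 7.2, 302 without replicate 11), and 105 without replicate 13. The 1257 genes with an unadjusted p below 0.05 became 2097 with array weights (1364 higher, 733 lower) and 798 to 1907 with a sample left out (575 to 1240 higher, 223 to 667 lower, lowest without saline replicate 5 and highest without MABs-allo replicate 11), and 595 were higher after thinning. Genes without overlap numbered 1022 to 2042 with a sample left out (624 to 1312 higher, 398 to 730 lower), which smaller groups raise by construction. Counts of higher members with a sample left out were 7 to 15 for chromatin remodelers, 4 to 13 for histone lysine methylation, 5 to 10 for DNA methylation and histone acetylation, 3 to 8 for transcription elongation and 3 to 9 for splicing, and 5 to 8 fatty acid genes were lower. Scaling to the same total gave 7 remodelers, 3 elongation and 5 splicing genes, thinning 3 elongation and 5 splicing genes, quantile normalization 5 splicing genes, and array weights 8 elongation and 10 fatty acid genes, while 1 fit of all 24 samples gave 3 fatty acid genes. The PC1 difference was 14.4 in a PCA of all 24 samples (exact permutation p = 0.0286) and −2.4 (exact permutation p = 0.857) to 25.4 with a sample left out, reversed without saline replicate 5. Interactions with day numbered 0 to 287 with a sample left out, 287 without saline 3d replicate 6 and 21 without MABs-allo 3d replicate 4. The cause of these changes was not tested. For 125 genes no direction turned in 2743 values and 48 values passed the threshold. These were the named genes, list members with an unadjusted p below 0.05 and genes named by the study. Most were thus picked on these same samples, so their steady direction was largely set by that choice. Of 946 list medians 11 moved beyond their spread. Depth limits the genes below 12.45 normalised counts, where some samples hold at most 3 reads.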

Other observations

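The 4 MABs-allo urethras differed from each other in gene groups that no contrast of the groups shows. Cell cycle genes were high in replicate 11 alone, with a mean log2 level 1.56 above the saline mean, against −0.69 to −0.26 in the other MABs-allo samples and −0.46 to 0.38 after saline. The decatenating enzyme Top2a was at 2384 normalised counts in replicate 11, against 268 to 473 in the other MABs-allo samples and 237 to 575 after saline, and the survivin gene Birc5 was at 1094, against 89.4 to 394 and 94.7 to 255.

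Lymphocyte genes were high in replicate 7.2. The mean of the T and NK cell list was 2.38 above the saline mean there and −0.78 to −0.13 in the other MABs-allo samples. The receptor chain Cd3d was at 229 normalised counts in replicate 7.2, against 9.93 to 49.8 in the others and 6.29 to 47.3 after saline, and the costimulator Icos was at 381, against 33.4 to 87.2 and 37.3 to 56.9. The MHC list was highest in the same sample, at 1.19. Replicate 9 had the lowest adipocyte score, −2.51, and replicate 13 the highest erythroid and collagen scores, 2.06 and 1.02.

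DESeq2 called 56 genes on the same reads on which limma and edgeR called 0. With replicate 11 left out 55 of the 56 were among 302 called, and with replicate 7.2 left out none was. Fitting DESeq2 to all 24 samples called 0.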
